A study of Zea mays with 24 samples.

Results

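The genes described here are a pair annotated as gibberellin (GA) receptor GID1L2, Zm00001d016895 and Zm00001d050837, and a pair annotated as DELLA proteins, Zm00001d044065 (DELLA protein RGA, also named GRAS-transcription factor 46) and Zm00001d033680 (dwarf plant8). These 4 genes were taken by gene ID from a table of 46430 genes, in which 24 genes carry a GA receptor or DELLA annotation (21 and 3 genes). No measured value enters the rule, but the study listed all of them as differentially expressed genes (DEGs) from these same libraries. Zm00001d016895 and RGA stand in its list for Y7-1 against Y478 under drought with ABA (RGA also in that under control), and Zm00001d050837 and dwarf plant8 in its list for ABA under drought in Y478. The values below for those comparisons are not independent evidence. Neither are those for comparisons that share their libraries, such as the drought responses in Y478, or for averages that contain them.

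RNA was sequenced from the second fully-expanded leaf of maize (Zea mays), in 24 libraries of 3 individual plants for each of 8 groups. Y478 is the inbred line Ye478, the wild type, and Y7-1 is a single T4 line of Y478 that carries the maize gene ZmPMP3g behind a 3×CaMV35S promoter and resistance to Basta. By the labels all plants have the Ye478 background, but how alike the lines are apart from the construct was not tested. No line with an empty construct is among the groups. Each line had a control treatment (pot mix moisture of 70%), a control-exogenous ABA treatment (the control with a foliar spray of 15 mg/L abscisic acid), a moderate drought treatment (50%), and a moderate drought-exogenous ABA treatment (50% with the same spray). Water was first withheld from seedlings with 5 leaves, and leaves were taken 9 d after the spraying began or the mix had dried to 50%. With 1 transgenic line, the transgene cannot be told apart from anything else in which Y7-1 differs from Y478.

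GAs are growth hormones. In rice and Arabidopsis, the soluble receptor GID1 binds GA and then a DELLA protein, a growth repressor of the GRAS family in the nucleus, and an F-box protein (GID2 in rice, SLEEPY1 in Arabidopsis) marks that DELLA protein for degradation. DELLA proteins act by binding transcription factors such as the phytochrome interacting factors. In maize, dwarf plant8 and its duplicate dwarf plant9 are the known DELLA genes, and dominant alleles of either give dwarf plants that no longer respond to GA. GID1 belongs to the carboxylesterase-like α/β-hydrolases, and GID1L2 (GID1-like 2) is a name given by likeness to GID1, so the name alone does not show that a protein binds GA. ABA is the hormone of water deficit and opposes GA in many tissues.

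By the coordinates of the table, whose contig names are those of version 4 of the B73 genome, Zm00001d016895 lies on chromosome 5 from 179608070 to 179609074 and Zm00001d050837 on chromosome 4 from 125665547 to 125666545. RGA lies on chromosome 3 from 218260054 to 218261481 and dwarf plant8 on chromosome 1 from 270918085 to 270919977. All of them are on the plus strand. Each span equals the length of its gene model (1005, 999, 1428 and 1893 bases), so the models are single exons. Each length is also a multiple of 3, but whether the models hold coding sequence alone was not tested. No other gene of the table overlaps any of them.

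Libraries held 15762667 to 18428177 reads (median 17248473), and values are FPKM, reads per kilobase of gene model, scaled to the reads of the library. One library, labelled replicate 3 of Y7-1 moderate drought and called the discordant library here, went against its label. Under the other treatments 66 genes had an FPKM of at least 1 in every Y7-1 library and under 0.1 in every Y478 library. The discordant library had 0 of them at 1 or more, against 62 and 61 in replicates 1 and 2 of its group. Of 38 genes with the reverse pattern it had all 38, against 0 and 0. None of the 4 genes is among those 66 or 38, and results that rest on this library are given with and without it. The ZmPMP3g homolog Zm00001d024778 overlapped between the lines under control, with an FPKM of 195 to 433 in Y478 and of 229 to 342 in Y7-1. Its moderate drought values were 2212 to 3233 in Y478, 572 and 684 in replicates 1 and 2 of Y7-1 and 3435 in the discordant library. Whether reads of the transgene count to this gene is not given in the sources used here. The leaf label held in every library. The mesophyll gene phosphoenolpyruvate carboxylase1 had an FPKM of 539 to 4686 and the bundle sheath gene NADP malic enzyme3 of 939 to 5501. Of 25 genes of dividing or meristem tissue, knotted1 was at 0 in all libraries, but others were read. The histone H4 gene Zm00001d005791 had 93.2 to 299.5 and proliferating cell nuclear antigen1 had 1.98 to 8.18, while the Cyclin-B1-4 gene Zm00001d043164 had at most 0.260. The summed FPKM of these 25 genes was 274.5 to 747.2.

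The pair of GID1L2 genes differed between the lines in opposite directions. Zm00001d050837 was the GA receptor gene with the highest median in Y478 and was lower in Y7-1, and Zm00001d016895 was low in Y478 and higher in Y7-1. Without the discordant library, neither gene overlapped between the lines.

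**Figure D1:**
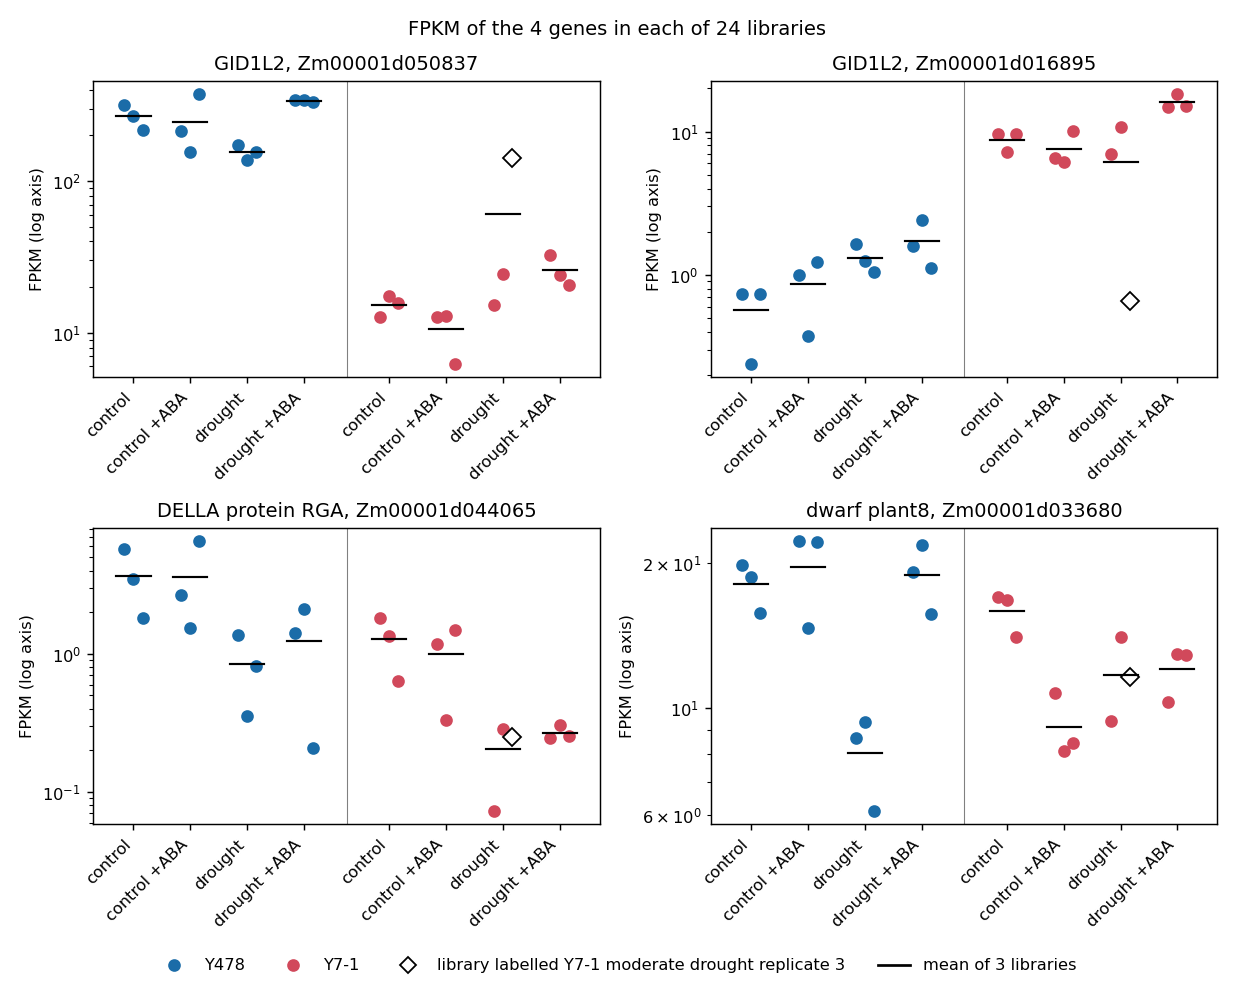
FPKM (log axis) of the 4 genes in each of 24 libraries, by line and treatment. Points are single plants, black bars are means of 3, and the open diamond is the discordant library. In the upper panels the diamond, at 142.6 and 0.659, sits with Y478 and apart from the other 11 libraries of Y7-1, at 6.25 to 32.8 and 6.17 to 18.1.

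In Y478, Zm00001d050837 had an FPKM of 317, 270.5 and 218 under control. It had 214.5, 154 and 372 under control-exogenous ABA. Under moderate drought it had 174, 137.5 and 155. The 3 drought values lay below all 3 control values. With both treatments the plants were close together at 345, 341 and 332, which is above the range under drought alone.

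In Y7-1, the same gene had 12.7, 17.5 and 15.8 under control. It had 12.7, 12.8 and 6.25 under control-exogenous ABA. With moderate drought, 15.3 and 24.6 were measured in replicates 1 and 2 and 142.6 in the discordant library, which lies inside the Y478 range under moderate drought. Drought with ABA gave 32.8, 24.1 and 20.6. Apart from that library, the highest value of Y7-1 (32.8) was far below the lowest of Y478 (137.5).

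By group mean, Zm00001d050837 was highest in Y478 under moderate drought-exogenous ABA (339 ± 6.56, SD, n = 3), followed by Y478 control (269 ± 49.4) and Y478 control-exogenous ABA (247 ± 113). The next groups were Y478 moderate drought (155.5 ± 18.3), Y7-1 moderate drought (60.8 ± 70.96 with the discordant library), Y7-1 moderate drought-exogenous ABA (25.8 ± 6.27), Y7-1 control (15.4 ± 2.46) and Y7-1 control-exogenous ABA (10.6 ± 3.76). Neighbours in this order had no overlap in 2 of 7 cases, which were the first against the second and Y7-1 moderate drought-exogenous ABA against Y7-1 control. The lines meet in this order through the discordant library alone.

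For Zm00001d016895, Y478 had an FPKM of 0.732, 0.240 and 0.737 under control. It had 0.995, 0.373 and 1.24 under control-exogenous ABA. Under moderate drought it had 1.65, 1.26 and 1.05. These values rest on 4 to 42 reads a library. All 3 drought values were above all 3 control values. Drought with ABA gave 1.60, 2.43 and 1.12, which overlaps drought alone.

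In Y7-1, Zm00001d016895 had 9.56, 7.20 and 9.58 under control. It had 6.55, 6.17 and 10.1 under control-exogenous ABA. With moderate drought, replicates 1 and 2 gave 6.98 and 10.7 and the discordant library gave 0.659. The last value lies inside the range of Y478. Under moderate drought-exogenous ABA the values were 14.7, 18.1 and 15.0, above every other library of the series.

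The order of its group means began with Y7-1 moderate drought-exogenous ABA (16.0 ± 1.89, SD, n = 3), Y7-1 control (8.78 ± 1.37), Y7-1 control-exogenous ABA (7.599 ± 2.16) and Y7-1 moderate drought (6.12 ± 5.09 with the discordant library). Y478 followed with moderate drought-exogenous ABA (1.72 ± 0.664), moderate drought (1.32 ± 0.304), control-exogenous ABA (0.869 ± 0.446) and control (0.570 ± 0.286). Only the first of the 7 neighbouring pairs did not overlap, and without the discordant library the step between the lines did not overlap either.

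The question of the line comparison is which genes differ in the ZmPMP3g line within a treatment. Tests were made with limma on log2(FPKM + 0.5) over the 23978 genes that passed a filter on low values, which all 4 genes passed, and p-values were adjusted over these genes by Benjamini and Hochberg. A gene is called at an adjusted p under 0.05, and fold changes are on that log2 scale. On this scale Zm00001d050837 in Y7-1 fell by 4.08 under control (SE 0.53, adjusted p = 2.71e-04), where 2 of the 4 genes were called, against 12.2% of tested genes. Under control-exogenous ABA it fell by 4.45 (adjusted p = 4.78e-05), where 3 of the 4 genes were called against 22.0%. Under moderate drought-exogenous ABA it fell by 3.71 (adjusted p = 3.00e-04), with 3 of the 4 genes called against 28.1%.

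Under moderate drought the log2 difference of Zm00001d050837 was -2.01 (adjusted p = 0.0608) with the discordant library, where 0 of the 4 genes (3 at an unadjusted p under 0.05) and 1.16% of tested genes were called. Without it, the gene was lower by -2.96 (adjusted p = 8.93e-06), and 2 of the 4 genes were called against 12.8%. Both GID1L2 genes thus pass in every treatment once this library is left out.

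Zm00001d016895 was up-regulated in Y7-1 by a log2 fold change of 3.14 under control (SE 0.54, adjusted p = 0.00116, 8.84-fold on FPKM + 0.5). The added 0.5 shrinks this change, since the mean FPKM was 0.570 in Y478 control and 8.78 in Y7-1 control. With ABA it was up-regulated by 2.59 in the control (adjusted p = 0.00254) and by 2.93 under drought (adjusted p = 0.00118). The difference under drought alone was 1.35 (adjusted p = 0.185), and it became 2.34 (adjusted p = 9.87e-05) when the discordant library was left out.

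Averaged over the 4 treatments, Zm00001d050837 was lower in Y7-1 with a log2 fold change of -3.56 (SE 0.26, adjusted p = 5.98e-08) and Zm00001d016895 higher with 2.50 (SE 0.27, adjusted p = 9.99e-07). Without the discordant library these were -3.80 and 2.75, with 51.8% of tested genes called. All 4 genes were called in this average (1 higher, 3 lower), where 48.9% of tested genes were called (24.6% higher, 24.3% lower). When a log2 fold change of 1 or more in either direction was also required, which is the study's rule for a DEG, 3 of the 4 passed, against 14.7%. This average contains comparisons for which the study had listed Zm00001d016895 and RGA, so these counts are not independent of that listing.

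**Figure D2:**
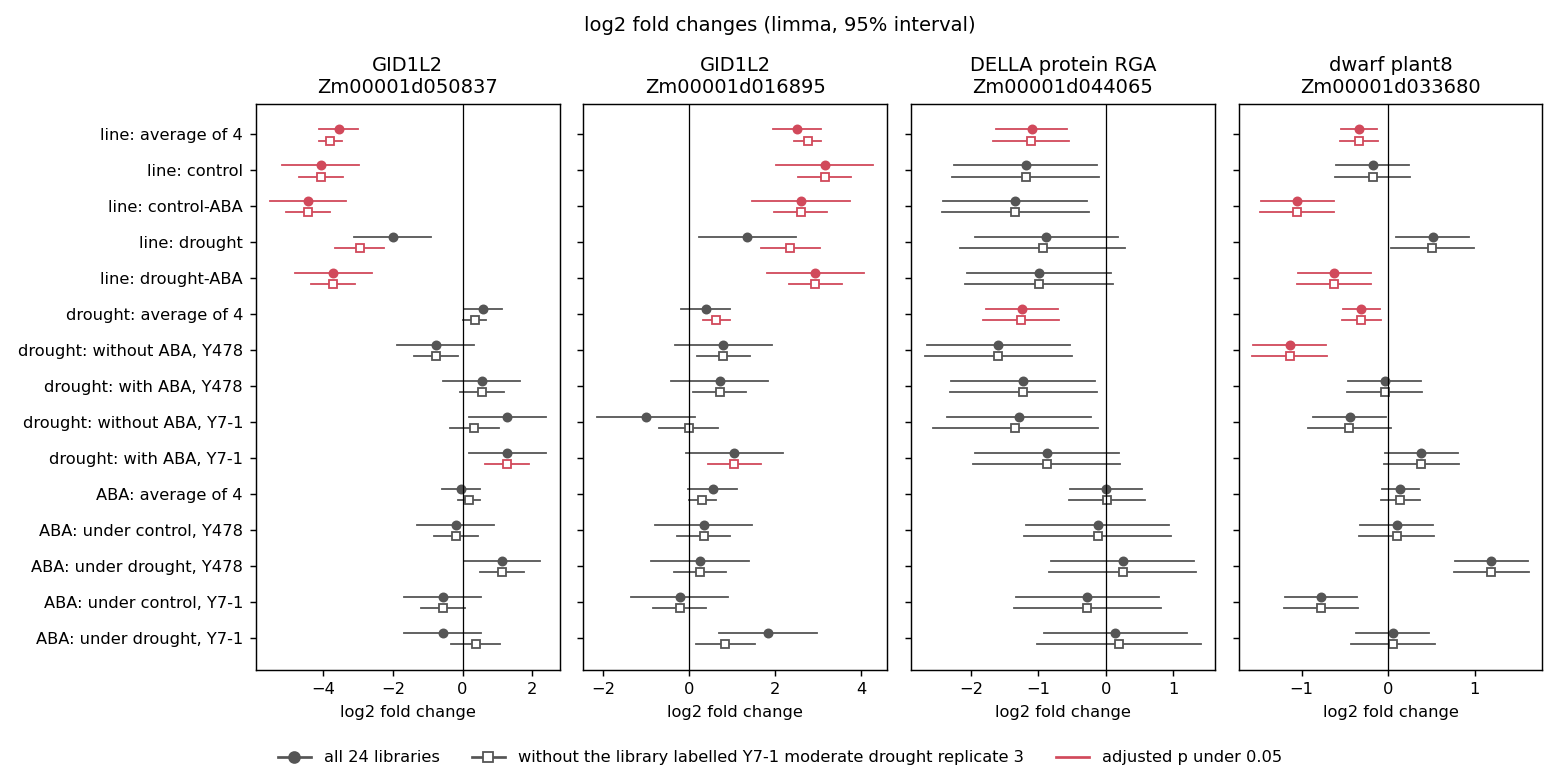
log2 fold changes of the 4 genes with 95% intervals (limma) for the line differences (Y7-1 minus Y478), drought responses and ABA responses, each with its average over 4 comparisons. Filled circles use all 24 libraries and open squares leave out the discordant library, and red marks an adjusted p under 0.05. Both GID1L2 genes are far from 0 in the line rows, on opposite sides, with narrower intervals in the open squares.

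The ratio of the pair gives the change within a library, where differences in depth and scaling cancel. Zm00001d050837 had 105.5 to 1129 times the FPKM of Zm00001d016895 in Y478 (median 256, n = 12) and 0.620 to 2.44 times in Y7-1 (median 1.94, n = 11). The discordant library had a ratio of 216. Over 24 libraries, Pearson's r of the pair on the log2 scale was -0.865, which is the separation of the lines, while r was 0.225 within the 12 Y478 libraries and 0.534 within 11 of Y7-1. These are descriptions over libraries that share their groups.

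**Figure D3:**
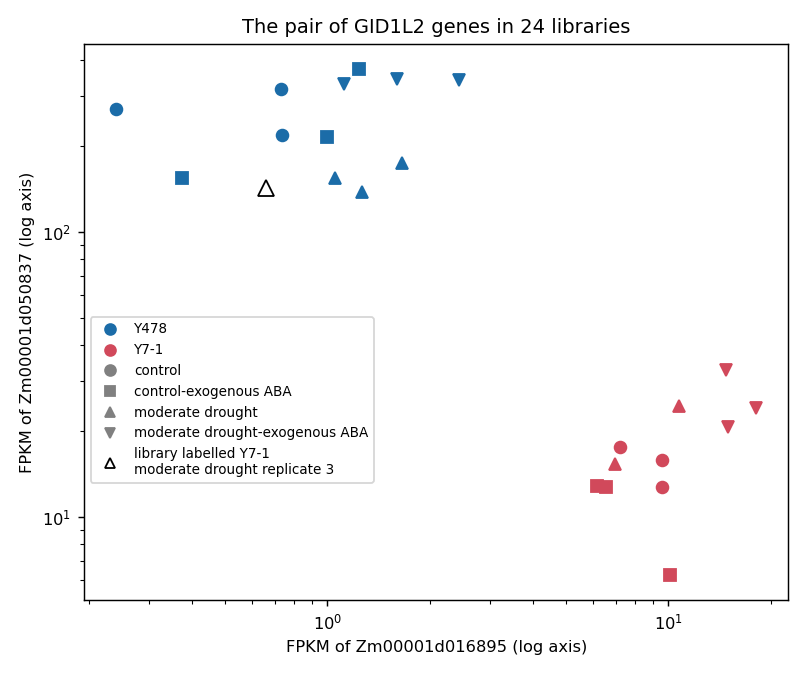
FPKM of Zm00001d050837 against that of Zm00001d016895 (both axes log) in 24 libraries. Colours are lines, symbols are treatments, and the open triangle is the discordant library. The lines form separate clusters, with ratios of 105.5 to 1129 in Y478 and 0.620 to 2.44 in Y7-1, and the open triangle (216) lies with Y478.

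As a share of the summed FPKM of all 21 GA receptor genes, Zm00001d050837 made up 34.2% to 70.5% in Y478 and 5.06% to 14.1% in 11 libraries of Y7-1. Zm00001d016895 made up 0.0624% to 0.391% and 3.20% to 8.17%. The discordant library had shares of 46.3% and 0.214% and a sum of 308, all inside the ranges of Y478. The sum itself was 256 to 770 (median 421) in Y478 and 90.4 to 274 (median 173) in Y7-1 without the discordant library, so the ranges overlap only between 256 and 274. In bulk leaf samples, fewer cells that use a gene and less RNA of it per cell cannot be told apart.

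The drought and ABA comparisons ask how the treatments act within each line. Zm00001d050837 in Y478 had a drought response of -0.78 without ABA (adjusted p = 0.438) and of 0.55 with ABA (adjusted p = 0.579), and neither passed the test. The discordant library enters the spread that all groups share, and leaving it out gave adjusted p = 0.125 and 0.258 for these. In Y7-1 the responses were 1.29 (adjusted p = 0.218) and 1.29 (adjusted p = 0.119). Without the discordant library the first was 0.34 (adjusted p = 0.761), while the second passed as a rise of 1.29 (adjusted p = 0.00961), with an SE of 0.30 in place of 0.53.

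Zm00001d016895 showed the same change of call in Y7-1. Its drought response without ABA was -1.001 (adjusted p = 0.356), and -0.0069 (adjusted p = 1) without the discordant library. With ABA it was 1.05 (adjusted p = 0.223), and it passed without the discordant library (1.05, adjusted p = 0.0235). Its average drought response was 0.39 (adjusted p = 0.309), and 0.64 (adjusted p = 0.00438), a call, when that library was left out. In Y478 the responses were 0.79 (adjusted p = 0.440) and 0.71 (adjusted p = 0.459). Of all genes, 9.66% were called under drought with ABA in Y478 and 11.8% in Y7-1 (13.8% without that library), and 0.713% in Y7-1 without ABA.

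DELLA protein RGA had the lowest FPKM of the 4 genes in all 12 libraries of Y7-1. It was lower in Y7-1 than in Y478 and lower under moderate drought than under control when the treatments or lines were averaged, and no single comparison of 3 plants against 3 passed the test. Its values rest on 2 to 145 reads a library, and 1 read of it is worth 0.0352 to 0.0514 FPKM.

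In Y478, RGA had an FPKM of 5.75, 3.50 and 1.82 under control (145, 83 and 42 reads). It had 2.67, 1.54 and 6.51 under control-exogenous ABA. Under moderate drought it had 1.38, 0.355 and 0.818, all below the lowest control plant. Under moderate drought-exogenous ABA the plants spread from 0.207 (5 reads) over 1.42 to 2.12.

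In Y7-1, RGA had 1.82, 1.36 and 0.636 under control. It had 1.17, 0.334 and 1.49 under control-exogenous ABA. Under moderate drought it had 0.0733 (2 reads) and 0.287 in replicates 1 and 2, and the discordant library had 0.250. The 3 plants under moderate drought-exogenous ABA had 0.246, 0.305 and 0.254 (7, 8 and 7 reads). The drought values of Y7-1 lay below all its control plants.

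The means of RGA ran from Y478 control (3.69 ± 1.97, SD, n = 3) and Y478 control-exogenous ABA (3.57 ± 2.61) over Y7-1 control (1.27 ± 0.599), Y478 moderate drought-exogenous ABA (1.25 ± 0.966), Y7-1 control-exogenous ABA (0.999 ± 0.598) and Y478 moderate drought (0.850 ± 0.513) to Y7-1 moderate drought-exogenous ABA (0.268 ± 0.0318) and Y7-1 moderate drought (0.204 ± 0.114). Neighbours overlapped except Y478 moderate drought and Y7-1 moderate drought-exogenous ABA.

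RGA was lower in Y7-1 on average by a log2 fold change of -1.10 (SE 0.25, adjusted p = 0.00158), and lower under moderate drought on average by -1.24 (SE 0.25, adjusted p = 0.00129). Without the discordant library these were -1.11 and -1.26, both called. In the average drought response 2 of the 4 genes were called, both lower, where 27.9% of tested genes were called (13.4% lower). Without the discordant library it was 3 of the 4, with Zm00001d016895 higher, against 27.0%. The line differences within a treatment were -1.19 under control, -1.34 under control-exogenous ABA, -0.88 under moderate drought and -0.99 under moderate drought-exogenous ABA, with adjusted p from 0.0644 to 0.363. The drought responses were -1.59 and -1.22 in Y478, without and with ABA, and -1.29 and -0.87 in Y7-1 (adjusted p from 0.0700 to 0.286). All 8 values have the same sign, and they share groups with each other. The line differences depart from the study, which listed RGA as lower in Y7-1 under control and under moderate drought-exogenous ABA. Its changes there were larger than those given here. The value added to FPKM before the logarithm shrinks differences at low FPKM. Under moderate drought-exogenous ABA the means were 1.25 FPKM in Y478 and 0.268 in Y7-1. How much of the departure this explains was not tested.

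The drought response of RGA was not shown to differ between the lines (Y7-1 minus Y478 0.33, 95% interval -0.73 to 1.39, adjusted p = 0.822). All drought values of RGA in Y7-1 (0.0733 to 0.305 FPKM) lay below the added 0.5, which shrinks the drop in that line. The sign of this difference turned in a fit on reads (limma-voom), so its direction is open. The ABA responses of RGA lay between -0.27 and 0.25, and their average was -0.00077 (95% interval -0.53 to 0.53).

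Dwarf plant8, a growth repressor that GA signalling removes, had a narrower range, from 6.11 to 22.2 FPKM over all libraries. In Y478 it was lower under moderate drought than under control when no ABA was sprayed, while the difference with ABA did not pass the test. It was lower in Y7-1 than in Y478 under both ABA treatments.

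In Y478, dwarf plant8 had an FPKM of 19.9, 18.7 and 15.8 under control. It had 22.2, 14.6 and 22.1 under control-exogenous ABA. Under moderate drought it had 8.67, 9.36 and 6.11. No other Y478 library was below 14.6. Under moderate drought-exogenous ABA it had 19.2, 21.8 and 15.7, which overlaps the control.

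In Y7-1, dwarf plant8 had 17.0, 16.7 and 14.04 under control. It had 10.8, 8.15 and 8.46 under control-exogenous ABA, below all 3 control plants. Under moderate drought it had 9.40 and 14.04, and 11.6 in the discordant library. The drought plants with ABA had 10.3, 12.9 and 12.9. For this gene the discordant library lies between the other plants of its group.

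By mean, Y478 control-exogenous ABA (19.6 ± 4.32, SD, n = 3), Y478 moderate drought-exogenous ABA (18.9 ± 3.05), Y478 control (18.1 ± 2.11) and Y7-1 control (15.9 ± 1.63) came first. Y7-1 moderate drought-exogenous ABA (12.03 ± 1.499), Y7-1 moderate drought (11.7 ± 2.32), Y7-1 control-exogenous ABA (9.12 ± 1.43) and Y478 moderate drought (8.05 ± 1.71) followed. The one pair of neighbours without overlap stood between these sets of 4, Y7-1 control against Y7-1 moderate drought-exogenous ABA.

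Under moderate drought without ABA, dwarf plant8 fell in Y478 by 1.14 on the log2 scale (SE 0.20, adjusted p = 0.00387), which was 1 of the 4 genes called, where 5.98% of tested genes were called (2.64% lower). The drought libraries of this call also stand in the ABA comparison for which the study listed this gene, so the call is not independent of that listing. With ABA the drought response of dwarf plant8 in Y478 was -0.04 (95% interval -0.46 to 0.38, adjusted p = 0.959). In Y7-1 the responses were -0.44 (adjusted p = 0.270) without ABA and 0.38 (adjusted p = 0.233) with ABA. Averaged over lines and ABA, dwarf plant8 was lower under moderate drought by -0.31 (adjusted p = 0.0273), with adjusted p = 0.0365 when the discordant library was left out. This average joins responses from -1.14 to 0.38, and it lost its call when any of 4 single libraries was left out.

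Whether the drought response of dwarf plant8 changed with ABA was tested as a difference of responses, a comparison that was added after its values had been seen. That difference was 1.09 in Y478 (SE 0.28, unadjusted p = 0.00110, adjusted p = 0.668) and 0.83 in Y7-1 (SE 0.28, unadjusted p = 0.00902, adjusted p = 0.160). Neither passed over all genes, and limma called 0 of 23978 genes for it in Y478 and 0.417% in Y7-1, so the difference between the called and the uncalled response is not shown.

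For exogenous ABA, none of the 4 genes passed the test in any of 4 comparisons or in their average. In these, 0.00417%, 0.00417%, 0.0375%, 0.163% and 0.0209% of tested genes were called. This departs from the study, which listed Zm00001d050837 and dwarf plant8 as DEGs for ABA under drought in Y478. A gene that did not pass is not shown to be unchanged. At an unadjusted p under 0.05, limma gave 2 of the 4 genes under moderate drought in Y478, 1 under control and 1 under moderate drought in Y7-1, and 0 under control in Y478 and in the average. Dwarf plant8 was nearest to the threshold, with 1.19 under moderate drought in Y478 (95% interval 0.77 to 1.61, adjusted p = 0.0585) and -0.78 under control in Y7-1 (adjusted p = 0.133). For the first, no plant of 1 group overlapped the other, and the same holds for the second.

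The line differences of dwarf plant8 with ABA were -1.05 in the control (SE 0.20, adjusted p = 0.00145) and -0.62 with drought (adjusted p = 0.0275), both called. Under control it was -0.18 (adjusted p = 0.613) and under moderate drought 0.51 (adjusted p = 0.177, and 0.154 when the discordant library was left out). The average was -0.33 (SE 0.10, adjusted p = 0.00997). The call under moderate drought-exogenous ABA was lost when either Y478 moderate drought-exogenous ABA replicate 1 or 2, or Y7-1 moderate drought-exogenous ABA replicate 1, was left out (-0.61, -0.52 and -0.52).

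None of the 4 genes passed the test of a different response between the lines. For drought, 0 of the 4 genes (2 at an unadjusted p under 0.05) and 0.542% of tested genes were called, and for ABA 0 of the 4 (1 at an unadjusted p under 0.05) and 0.0250%. The ABA response of dwarf plant8 was lower in Y7-1 than in Y478 by -1.005 (SE 0.20, unadjusted p = 8.04e-05, adjusted p = 0.134). Its drought response differed by 0.56 (adjusted p = 0.201) and that of Zm00001d050837 by 1.40 (adjusted p = 0.223), which became 0.93 (adjusted p = 0.148) when the discordant library was left out.

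The levels of photosynthesis genes moved with drought as well, beside the drought responses of RGA and dwarf plant8. The summed FPKM of 3 mesophyll genes was 8733 to 9577 in Y478 control, 2397 to 5479 in Y478 moderate drought and 2436 to 6174 in Y478 moderate drought-exogenous ABA. In the same groups of Y7-1 it was 6710 to 8481, 3339 to 5496 and 5250 to 7869. The sum of 4 bundle sheath genes was 9181 to 13240, 6806 to 7746 and 9452 to 12050 in these groups of Y478, and 5852 to 10220, 6552 to 6950 and 4260 to 5151 in those of Y7-1. In Y478 the mesophyll sum was thus below the control range under drought with and without ABA. The bundle sheath sum of Y478 was below its control range under drought without ABA and overlapped it with ABA, as dwarf plant8 did in Y478. In Y7-1 this likeness varied with the treatment. Under moderate drought-exogenous ABA its bundle sheath sum (4260 to 5151) and dwarf plant8 (10.3 to 12.9 FPKM) both lay below their control ranges. Under moderate drought the bundle sheath sum lay inside its control range. Of dwarf plant8 (9.40 to 14.04) only the highest plant there reached the control plants (14.04 to 17.0). Under control-exogenous ABA the bundle sheath sum of Y7-1 was 9688 to 18840, which overlaps its control, while dwarf plant8 lay below all 3 control plants. The part of photosynthesis genes or their cells in the values of the DELLA genes was not tested.

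Dwarf plant9 (Zm00001d013465), the duplicate of dwarf plant8 and the third DELLA gene of the table, differed between the lines in the other direction. Its FPKM ranged from 5.75 to 16.6 in Y478 (median 13.8, n = 12) and from 9.93 to 32.6 in Y7-1 (median 16.4, n = 12, with 12.3 in the discordant library). It was higher in Y7-1 on average by a log2 fold change of 0.47 (SE 0.16, adjusted p = 0.0188), and by 0.51 (adjusted p = 0.0137) when that library was left out. It was lower under moderate drought on average by -0.43 (adjusted p = 0.0469), a call lost without that library (-0.39, adjusted p = 0.0804). The duplicates are alike in sequence, and how reads that match both were counted is not given in the sources used here, so the division between them is uncertain.

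The sum of dwarf plant8 and dwarf plant9 is less open to that division. It was 32.8 ± 3.72 FPKM (SD, n = 3) in Y478 control, 34.7 ± 4.16 in control-exogenous ABA, 16.6 ± 4.23 in moderate drought and 32.0 ± 2.96 in moderate drought-exogenous ABA. In Y7-1 it was 39.2 ± 6.74, 28.3 ± 11.7, 27.3 ± 2.93 and 27.3 ± 3.04 in the same order. The sum was thus lowest in Y478 moderate drought, where all 3 plants (11.9 to 20.0) lay below the other Y478 plants. Dwarf plant8 made up 43.4% to 67.5% of the sum in Y478 and 20.6% to 48.7% in Y7-1.

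**Figure D4:**
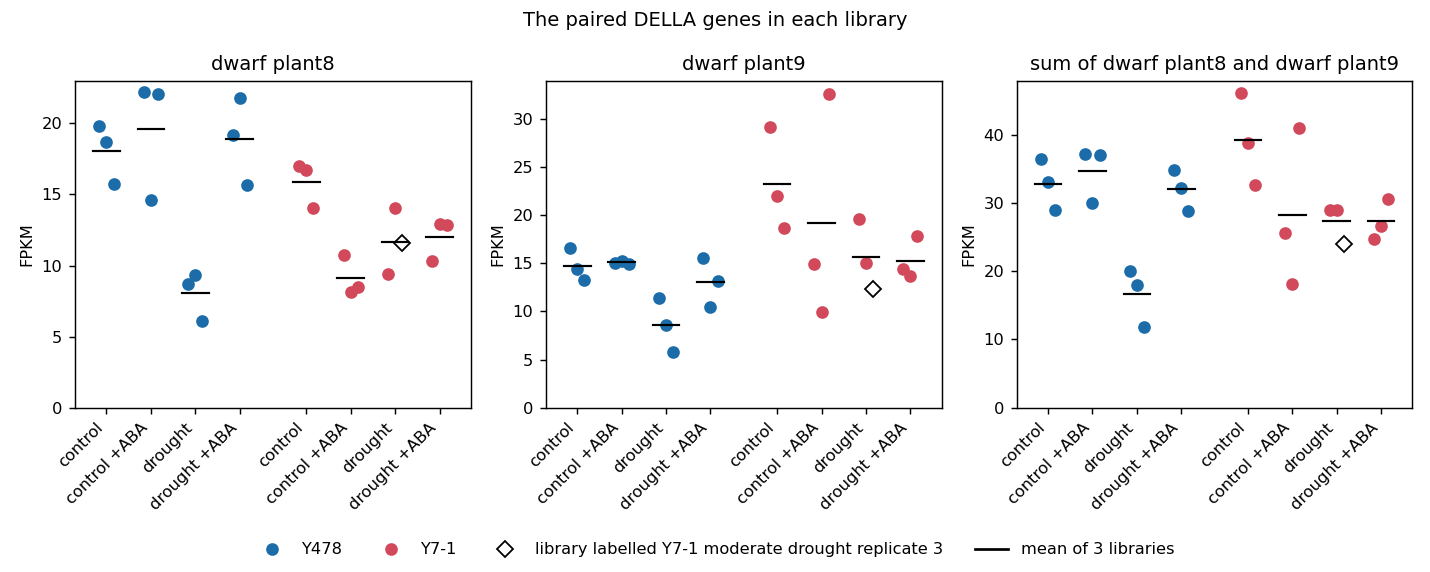
FPKM of dwarf plant8, dwarf plant9 and their sum in each library, by line and treatment. Points are single plants, black bars are means of 3, and the open diamond is the discordant library. The Y478 plants under moderate drought have the lowest sums of their line (11.9 to 20.0), and dwarf plant9 is above dwarf plant8 in the Y7-1 control plants.

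Of the 21 GA receptor genes, 13 passed the filter on low values, and the 8 others had at most 9 reads in any library. Among the 11 tested genes beside the pair, 0 were higher and 4 were lower in Y7-1 on average (36.4%, against 48.9% of all genes in either direction), with a median log2 fold change of -0.09 (0.00018 over all tested genes). Zm00001d005909 (GID1L2) was lower by -0.81 (adjusted p = 1.2e-05), Zm00001d038165 (putative GID1-like receptor) by -0.67 (adjusted p = 0.00141) and Zm00001d031805 (GID1L2) by -0.61 (adjusted p = 0.0162). The fourth, Zm00001d043000 (GID1), had an FPKM of 0.218 to 2.22 in Y478 and was at 0 in all libraries of Y7-1 except the discordant library (1.30). Without that library, 1 gene was higher and 5 were lower (54.55%, against 51.8% of all genes).

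Under moderate drought, 2 of these 11 receptor genes rose on average and 1 fell (27.3%, against 27.9% of all genes), with a median of -0.05. Zm00001d031805 rose by 1.63 (adjusted p = 1.2e-05), from 57.2 ± 28.4 FPKM in the 12 control plants to 174 ± 71.7 in the 12 drought plants, and had the second highest median FPKM among receptor genes in Y478 (133) and the highest in Y7-1 (77.7). Zm00001d038165 rose by 0.75 (adjusted p = 0.00127), while Zm00001d005909 fell by 0.42 (adjusted p = 0.00896). Zm00001d010308 (GID1A) had 4.38 to 16.4 FPKM, with values of -0.09 for the line and 0.32 for drought that did not pass.

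**Figure D5:**
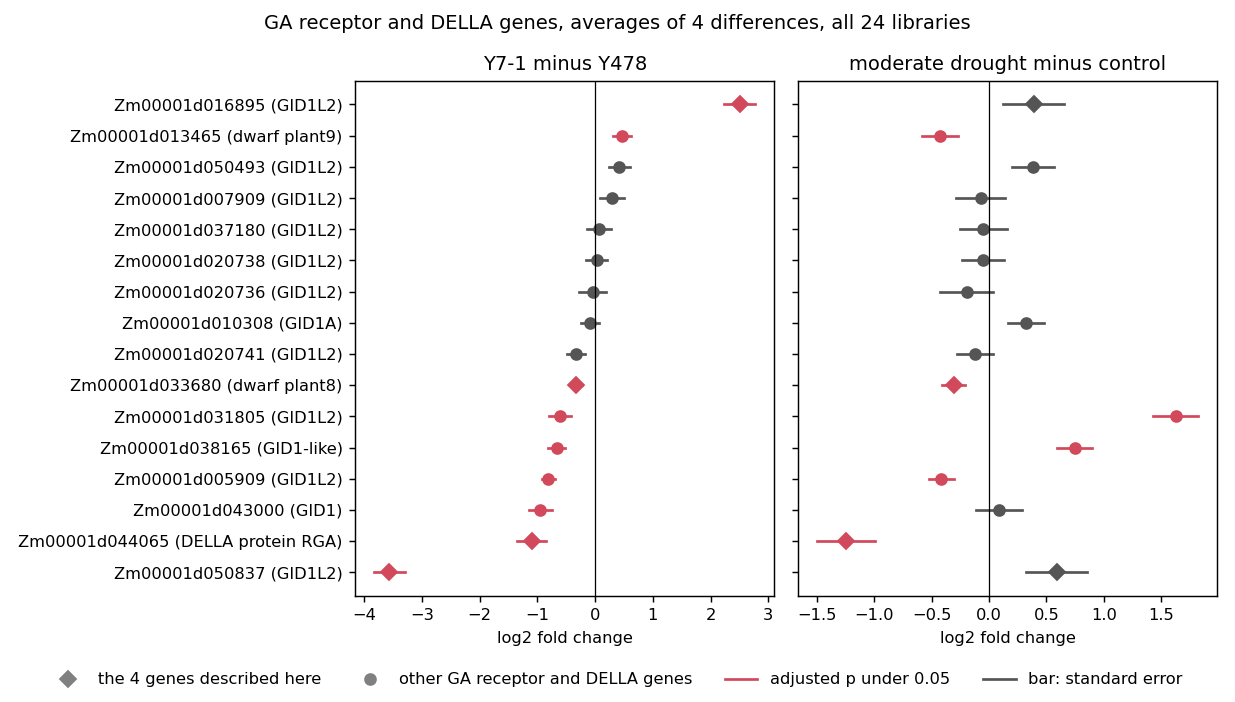
Average log2 fold changes of the 16 tested GA receptor and DELLA genes between lines (left) and between moderate drought and control (right), all 24 libraries. Diamonds are the 4 genes described here, circles are the other genes, bars are standard errors and red marks an adjusted p under 0.05. The pair of GID1L2 genes stands at both ends of the left panel (2.50 and -3.56), and RGA (-1.24) and Zm00001d031805 (1.63) at those of the right.

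The other genes of the pathway were taken by name from the table, in lists of GA synthesis, inactivation, response, DELLA turnover, phytochrome interacting factors, other GRAS proteins and carboxylesterases. With the receptors and dwarf plant9 these were 118 tested genes, of which 19 were higher and 41 lower in Y7-1 on average (50.8%, against 48.9% of all genes). Under moderate drought 29 were higher and 10 lower (33.1%, against 27.9%). Under ABA 0 were called (12 at an unadjusted p under 0.05).

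Of 9 tested genes of GA synthesis, 0 were higher and 2 lower in Y7-1 (22.2%, against 48.9% of all genes), and 1 was higher and 3 were lower under moderate drought (44.4%, against 27.9%). Gibberellin 20-oxidase5, which makes the precursors of active GA, was lower under drought by -1.58 (adjusted p = 3.54e-04), with 19.0 ± 14.01 FPKM in control plants and 5.49 ± 4.42 in drought plants (SD, n = 12), and gibberellin 20-oxidase3 by -1.12 (adjusted p = 0.0222). Zm00001d049926, described as GA 20 oxidase 2, was higher by 1.16 (adjusted p = 0.0185). In Y7-1, dwarf plant1, the GA 3-oxidase of maize, was lower on average by -0.77 (adjusted p = 0.00695) and gibberellin 20-oxidase5 by -0.74 (adjusted p = 0.0327). These averages do not give the single treatments. The study listed gibberellin 20-oxidase5 as up-regulated in Y7-1 against Y478 under moderate drought-exogenous ABA. In that comparison limma called 0 of the 9 genes (3 at an unadjusted p under 0.05), against 28.1% of all genes.

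Of 7 tested genes of GA inactivation, 3 were higher and 1 was lower in Y7-1 (57.1%, against 48.9% of all genes), and without the discordant library 3 and 2 (71.4%, against 51.8%). Gibberellin 2-oxidases remove active GA or its precursors. Gibberellin 2-oxidase12 was higher by 1.72 (adjusted p = 0.00468) and gibberellin 2-oxidase7 by 1.61 (adjusted p = 1.23e-04), and gibberellin 2-oxidase13 was lower by -0.90 (adjusted p = 0.0419). Under moderate drought 1 rose and 0 fell (14.3%, against 27.9%), and without the discordant library 2 and 0 (28.6%, against 27.0%). Gibberellin 2-oxidase6 rose by 2.31 (adjusted p = 9.4e-05), from 0.232 ± 0.368 to 4.13 ± 3.90 FPKM (SD, n = 12).

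Of 7 tested GA response genes, 2 were higher and 1 was lower in Y7-1 (42.9%, against 48.9% of all genes), and 4 rose and 0 fell under moderate drought (57.1%, against 27.9%). When the discordant library was left out, 6 were tested, of which 3 rose and 0 fell under drought. Gibberellin-regulated protein 1 (Zm00001d033369) rose by 2.25 under drought (adjusted p = 1.4e-05) and was lower in Y7-1 by -1.45 (adjusted p = 3.61e-04). Gibberellin responsive1 rose under drought by 1.44 (adjusted p = 6.37e-04), and gpm109a (gibberellin-regulated protein 13) by 0.90 (adjusted p = 7.48e-04). Gibberellin responsive3 was higher in Y7-1 by 1.47 (adjusted p = 3.6e-05), and gpm109a by 1.16 (adjusted p = 2.9e-05).

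Of 3 tested genes of DELLA turnover and modification, 2 were higher in Y7-1 (66.7%, against 48.9% of all genes). The F-box protein GID2 (Zm00001d050903), whose rice counterpart marks DELLA proteins for degradation, was higher by 0.37 (adjusted p = 0.0141), with 2.20 ± 0.531 FPKM in Y478 and 2.97 ± 0.605 in Y7-1 (SD, n = 12). The probable sugar transferase SPINDLY (Zm00001d031938), whose Arabidopsis counterpart modifies DELLA proteins, was higher by 0.20 (adjusted p = 0.0280) and lower under drought by -0.23 (adjusted p = 0.0233). Phytochrome interacting factor3, a kind of DELLA partner, was lower in Y7-1 by -0.52 (adjusted p = 0.0266) and rose under drought by 0.89 (adjusted p = 0.00160).

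Among 44 other GRAS genes, the family of the DELLA proteins, 8 were higher and 19 lower in Y7-1 (61.4%, against 48.9% of all genes). Under drought 13 rose and 3 fell (36.4%, against 27.9%), and 8 and 3 without the discordant library (25.0%, against 27.0%). Zm00001d023247 (Scarecrow-like protein 3) and Zm00001d022162 (Scarecrow-like protein 6) were at 0 in all 12 Y478 libraries and 7.12 ± 6.93 and 3.87 ± 3.92 FPKM in Y7-1 (SD, n = 12). Scarecrow1, a regulator of leaf and root tissue layers, rose under drought by 0.72 (adjusted p = 0.00940). Among 35 carboxylesterase genes, the wider family of GID1, 3 were higher and 13 lower in Y7-1 (45.7%, against 48.9%), and Zm00001d037288 (probable carboxylesterase 2) was lower by -3.25 (adjusted p = 1e-06), with 55.6 ± 24.1 FPKM in Y478 and 7.55 ± 10.7 in Y7-1. Under drought 7 carboxylesterase genes rose and 1 fell (22.9%, against 27.9%).

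Neighbours of the 4 genes within 1 Mb differed between the lines as well. Without the discordant library, the line average called 29 of 39 tested neighbours of Zm00001d016895 (15 higher, 14 lower), 6 of 11 of Zm00001d050837, 28 of 37 of RGA (9 higher, 19 lower) and 7 of 18 of dwarf plant8, where 51.8% of all tested genes were called. These shares were 74.4%, 54.5%, 75.7% and 38.9%. Neighbours moved in both directions, and neighbouring genes are not independent of each other.

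The genes most like each of the 4 in pattern were taken as those with the highest Pearson r of log2(FPKM + 0.5) over 24 libraries. For Zm00001d016895 they were Zm00001d051803 (Erwinia induced protein 2, r = 0.952, at a median of 0 FPKM in Y478 and 22.7 in Y7-1), Zm00001d052678, Zm00001d039914, Zm00001d007095 and Zm00001d050550 (r = 0.942 to 0.948), all higher in Y7-1 by median. For Zm00001d050837 they were Zm00001d013489 (a splicing factor of the Prp18 family, r = 0.972, at medians of 51.8 and 2.86 FPKM), MRP interacting1, Zm00001d012398, Zm00001d052523 and Zm00001d037659 (r = 0.964 to 0.967), all lower in Y7-1. For both genes these r rest on the separation of the lines.

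For RGA the most alike were Zm00001d039468 (a glutaredoxin, r = 0.886), Zm00001d035303 (an F-box protein, r = 0.877), Zm00001d000260, Zm00001d033690 and Zm00001d024572 (r = 0.854 to 0.874). For dwarf plant8 they were Zm00001d049464 (a B-box zinc finger protein, r = 0.821), Zm00001d047728, GRAS-transcription factor 37 (protein SCARECROW, r = 0.784), Zm00001d042107 and NAC-transcription factor 90 (r = 0.772). Both sets had lower r than those of the GID1L2 genes. Among the 4 genes, RGA and dwarf plant8 had r = 0.605 over 24 libraries (0.612 within Y478 and 0.330 within 11 of Y7-1), and Zm00001d050837 and dwarf plant8 had r = 0.770 within the 12 Y478 libraries. In Y478 the last pair shared its lowest group, moderate drought without ABA, as the per-plant values above show.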

How the data were processed

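Leaf RNA of 24 maize plants (2 lines, 4 treatments, 3 plants a group) was measured by RNA-seq. The authors deposited FPKM values for 46430 genes, made on the Novomagic platform from NEBNext Ultra libraries run on a NovaSeq. Their processing notes name HISAT2 2.0.5. The counting tool is not given in the sources used here, and the labels name a tissue, a kit and a genome build (mouse) that cannot belong to maize leaves. Reads per gene were recovered, because the product of FPKM and length came in steps of equal size in each library (100% of values lay within 0.05 of a step).

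The 23978 genes that reached an FPKM of 0.5 in 3 or more libraries were tested with limma 3.58.1 (R 4.3.3) on log2(FPKM + 0.5), with 8 group means in 1 fit, eBayes with a trend, two-sided tests and Benjamini-Hochberg adjustment per comparison. The fit was tested on simulated data. Tables and figures were made with Python 3.11.15, pandas 2.3.3, numpy 2.4.6 and matplotlib 3.10.9. Replicates differed by more than sampling noise (chi-square per degree of freedom 17.5 to 215 over 24 pairs) and are separate plants.

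The 4 genes, the lists and the tests were chosen with earlier results of these data known. Lists are regular expressions on names and descriptions. Named are the 4 genes, GA receptor and DELLA genes, up to 3 called genes per other list and average (largest change first) and the 5 genes most alike to each of the 4, with some left out here. Alternatives were other pseudocounts, filters, normalizations, library weights, limma-voom on reads, fits of the compared groups alone, a replicate block and each library left out. Sequences were not used here.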

Additional observations from a re-analysis of the deposited data

How the results depend on the processing

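With array weights, which lower the weight of libraries far from their group, the calls rose from 8 to 13 of 16 line differences, from 1 to 6 of 16 drought responses, from 0 to 3 of 16 ABA responses, from 0 to 1 of 8 interactions with line, and from 0 to 3 of 118 pathway genes in the ABA average. With no filter on low values, 1 ABA response was called. The cause was not tested. The lowest weights were 0.186 (Y7-1 control-exogenous ABA replicate 3) and 0.251 (the discordant library). Leaving out each library in turn gave 7 to 10 line calls, 1 to 3 drought calls, 0 to 1 ABA calls, 5 to 7 calls in the averages (6 with all libraries), 0 to 1 interactions, 54 to 64 pathway genes in the line average and 32 to 43 in the drought average. Leaving out the discordant library was chosen after seeing the data, and its values stand beside the results.

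The other calls of the 4 genes held under all alternatives run: each called line difference of the GID1L2 genes, both average calls of RGA, and the line difference under control-exogenous ABA, the average line difference and the drought response in Y478 of dwarf plant8. For dwarf plant8 (Zm00001d033680), the line difference under moderate drought-exogenous ABA was lost under quantile normalization (-0.50, adjusted p = 0.067), and 4 left-out libraries took the average drought response to adjusted p from 0.0501 to 0.0541 (Y478 control-exogenous ABA replicate 1, Y478 moderate drought replicate 3, Y478 moderate drought-exogenous ABA replicate 3 and Y7-1 moderate drought-exogenous ABA replicate 1). Its ABA response under moderate drought in Y478 passed with no filter (adjusted p = 0.0413), with array weights, and without any of 3 single libraries.

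Signs turned only among values that were not called. For RGA (Zm00001d044065) the average ABA response was 0.0134 at a pseudocount of 0.1, 0.0361 under quantile normalization, 0.0151 with array weights and 0.0035 with limma-voom, and limma-voom gave -0.16 and 0.0306 for its drought and ABA interactions. Array weights gave -0.0222 for the ABA interaction of Zm00001d016895 and 0.15 for the average ABA response of Zm00001d050837.

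With single libraries left out, Zm00001d050837 ranged from -0.54 to 0.0903 for ABA under control in Y478, from -1.21 to 0.38 under moderate drought in Y7-1 and from -0.21 to 0.18 in the average. RGA (Zm00001d044065) ranged from -0.61 to 0.29 and -0.14 to 0.80 in Y478, from -0.56 to 0.10 and -0.00093 to 0.23 in Y7-1 (ABA under control, then under moderate drought), from -0.12 to 0.14 in the average and from -0.41 to 0.11 for the ABA interaction. Dwarf plant8 (Zm00001d033680) ranged from -0.24 to 0.0810 for drought with ABA in Y478, from -0.0015 to 0.29 for ABA under control in Y478 and from -0.0895 to 0.19 under moderate drought in Y7-1.

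The replicate numbers are shared by the groups, but libraries with the same number did not deviate together (median correlation 0.001, range -0.238 to 0.318 over 84 pairs, 12 over 0.1). With the replicate number as a block, 8 line, 1 drought, 0 ABA, 6 average and 0 interaction calls were made, with 62, 39 and 0 pathway genes in the 3 averages, and no call of the 4 genes changed. Depth limits RGA and, in Y478, Zm00001d016895, which rest on 2 to 145 and 4 to 42 reads.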
